A study of Canis lupus familiaris with 2 samples.

Results

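The miRNAs miR-1835 to miR-1844 carry consecutive numbers from a series that was first named in dog. They were taken by name from the dog miRNA spots of the chip, whatever their signals, and came to 10 of its 291 dog miRNAs. Serum was studied from CXMD_J dogs, a beagle-based line with canine X-linked muscular dystrophy whose mutated gene encodes dystrophin, and from normal dogs. All were male and 2 months old, and the sera of 3 dogs were mixed in each condition, so that differences between dogs could not be seen. RNA from each pool was labelled with Cy5 and put on 1 single-color array. With 1 array per condition, no difference given here has a replicate check and none was tested.

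A miRNA is cut from a hairpin transcript by Drosha and Dicer and is loaded on an Argonaute protein, where the seed near its 5′ end pairs with target mRNAs. Many hairpins lie inside longer genes and can be cut from the transcript of that host gene. In blood, miRNAs outside cells are carried in vesicles or bound to protein, and injured muscle fibers release muscle miRNAs into the serum.

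Each array had 3200 spots, among them 1 spot for each dog miRNA and 1408 blank spots without a probe. The blank spots, trimmed at both ends, averaged 118.0 intensity units on the normal array and 115.8 on the dystrophic array. A miRNA was detected above that mean plus 2 SD, a limit of 125.9 and 124.0 units. After subtraction of the blank mean, each array was scaled so that its detected dog miRNAs had a median of 25. This gives the normalized signal, and its 95% noise range joins the scatter of blank spots with the scatter between repeated control spots.

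Of the 10 miRNAs, 7 were detected in normal serum and 7 in dystrophic serum. They were the same 7 miRNAs, miR-1835, miR-1837, miR-1838, miR-1840, miR-1841, miR-1843 and miR-1844, and miR-1836, miR-1839 and miR-1842 were below the limit on both arrays. In this setting no member was detected in 1 condition alone. With the local background of each spot subtracted instead, 1 member, miR-1837, and 7.22% of the dog miRNAs were detected in both sera. At a limit of 3 SD miR-1838 was detected in dystrophic serum alone. Over all dog miRNAs, 54.6% were detected in normal serum, 64.6% in dystrophic serum and 48.8% in both. The detection limit was low beside the controls. On the normal and dystrophic arrays it was exceeded by 9.38% and 8.59% of all blank spots. Of 181 spots labelled No Probe, 48 and 43 exceeded it on these arrays. Of the 32 negative-control spots, 21 exceeded it on the normal array and 27 on the dystrophic array, with highest values of 163.4 and 152.4 units. On both arrays 4 members, miR-1835, miR-1837, miR-1841 and miR-1844, lay above all 32 negative-control spots, as did 17.2% of the dog miRNAs of the chip.

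**Figure D1:**
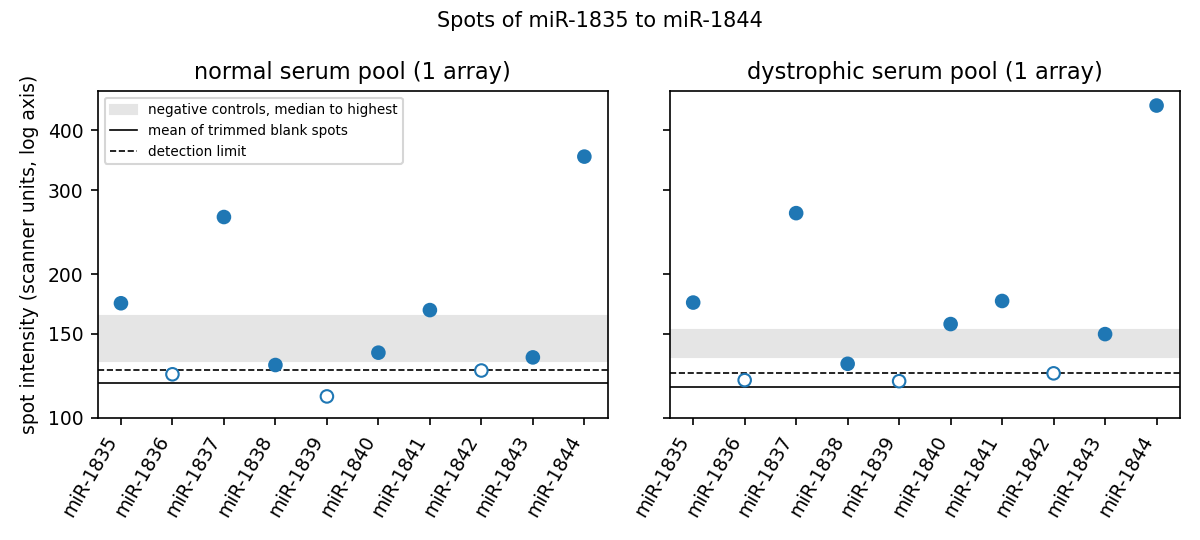
Spot intensity of the 10 miRNAs (scanner units, log axis) on the normal array (left) and the dystrophic array (right), with filled points above the detection limit and open points below it. The band runs from the median to the highest of the 32 negative-control spots, and 4 miRNAs lie above the band on both arrays.

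miR-1844 had a spot intensity of 352.6 units on the normal array and 451.1 units on the dystrophic array. No blank spot was as bright on either array. Its normalized signal was 243.9 in normal serum, with a noise range of 209.3 to 278.6, and 277.2 in dystrophic serum, with a noise range of 239.5 to 315.0. The noise ranges overlapped. The ratio of dystrophic to normal serum was 1.14, with a 95% noise interval of 0.933 to 1.39, and it was 0.934 when the arrays were scaled on the miRNAs detected on both. It was above that interval without scaling (1.43), with untrimmed blank spots (1.46) and with spike controls (1.47). The local background around the spot was 408.2 units on the normal array, more than the spot itself, and subtracting it ended the detection in normal serum and left no ratio. The hairpin gene lies within the span of DYNLL2, which encodes a light chain of the dynein motor.

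miR-1837 had a spot intensity of 263.4 units in normal serum and 268.4 units in dystrophic serum, again brighter than every blank spot. Its normalized signal was 151.2 in normal serum, with a noise range of 127.2 to 175.2, and 126.2 in dystrophic serum, with a noise range of 106.6 to 145.7. The raw spots differed little, and the lower normalized signal of dystrophic serum came with the smaller scaling factor of that array, 0.827 against 1.04 for the normal array. The ratio was 0.834, with a noise interval of 0.667 to 1.04, which includes 1. It turned above 1 without scaling (1.05), with scaling to spike controls (1.08) and with untrimmed blank spots (1.07). It was below its noise interval with quantile normalization (0.619) and with local background subtraction (0.611).

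For miR-1837, RefSeq lists 3 genes on the dog assembly UU_Cfam_GSD_1.0, and a spot cannot tell them apart. Of these genes, MIR1837-1 lies within C17H2orf16 and MIR1837-2 within CPT1A, whose product brings long-chain fatty acids to the mitochondrion for oxidation. MIR1837-3 is not placed on a chromosome.

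miR-1835 had a spot intensity of 173.7 units in normal serum and 174.3 units in dystrophic serum. It was not brighter than every blank spot, as 2 of 1408 were as bright on each array. Its normalized signal was 58.0 in normal serum, with a noise range of 42.4 to 73.5, and 48.4 in dystrophic serum, with a noise range of 36.1 to 60.6. These ranges overlapped over most of their width. The ratio was 0.835, with a noise interval of 0.574 to 1.23, and it was 1.05 without scaling, 1.08 with spike controls and 1.07 with untrimmed blank spots. It was below 1 in 11 of the 14 other settings that gave a ratio, down to 0.648 with quantile normalization. Among these 11, the deposited normalized values and the limits on dim signals repeat the main ratio by construction, so the count adds little. With local background subtraction miR-1835 was not detected.

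miR-1841 had a spot intensity of 168.1 units in normal serum and 175.7 units in dystrophic serum. It was not brighter than every blank spot, as 4 of 1408 were as bright on the normal array and 2 on the dystrophic array. Its normalized signal was 52.1 in normal serum, with a noise range of 36.9 to 67.3, and 49.5 in dystrophic serum, with a noise range of 37.2 to 61.8. No difference between the sera was detectable within that noise. The ratio was 0.950, with a noise interval of 0.647 to 1.43, and it turned above 1 without scaling (1.19), with spike controls (1.23), with untrimmed blank spots (1.22), with normexp (1.01) and without background subtraction (1.02). The gene lies within a long noncoding RNA gene, LOC119871445, and its nearest protein-coding neighbor is AGT, the gene of angiotensinogen.

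miR-1840 and miR-1843 were dimmer, and each had a higher signal in dystrophic serum. miR-1840 had a spot intensity of 136.9 units in normal serum, where 11 of the 32 negative-control spots were at least as bright, and 157.1 units in dystrophic serum, where none was. Its normalized signal was 19.6 in normal serum, with a noise range of 5.81 to 33.4, and 34.2 in dystrophic serum, with a noise range of 22.8 to 45.6. The ratio was 1.74, with a noise interval of 0.888 to 6.02. It stayed above 1 under all 12 other settings that gave a ratio, and it passed 2 in 3 of them, at 2.19 without scaling, 2.26 with spike controls and 2.28 with untrimmed blank spots. It came closer to 1 without background subtraction (1.12), with normexp (1.19), with quantile normalization (1.32) and with scaling on the shared detected miRNAs (1.43). Among the 12, the deposited normalized values and dim signals set to the limit repeat the main ratio by construction. With local background subtraction miR-1840 was not detected. It also failed the limits of a normalized signal of 25 on both arrays and of all negative controls, so these gave no ratio. The gene of miR-1840 overlaps no other listed gene and lies beside CNPPD1 and RETREG2, the latter a gene for a protein of the endoplasmic reticulum.

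miR-1843 had a spot intensity of 133.8 units in normal serum, with 13 negative-control spots at least as bright, and 149.7 units in dystrophic serum, with 2 at least as bright. Its normalized signal was 16.4 in normal serum, with a noise range of 2.67 to 30.2, and 28.0 in dystrophic serum, with a noise range of 16.9 to 39.1. The ranges overlapped for this miRNA and for miR-1840. The ratio of miR-1843 was 1.71, with a noise interval of 0.772 to 10.7. It too stayed above 1 under all 12 other settings that gave a ratio, and it was 2.15 without scaling, 2.21 with spike controls and 2.25 with untrimmed blank spots. It was 1.09 without background subtraction, 1.15 with normexp, 1.33 with quantile normalization and 1.40 with scaling on the shared detected miRNAs. As for miR-1840, some of the 12 repeat the main ratio by construction. Local background subtraction and the same limits on dim signals gave no ratio. The gene lies within COP1, which encodes a ubiquitin ligase.

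miR-1838 was close to the detection limit in both sera. Its spot intensity was 129.0 units in normal serum and 129.7 units in dystrophic serum, levels that 5.61% and 3.76% of the blank spots reached. Of the 32 negative-control spots, 21 and 22 reached them. Normal serum had a normalized signal of 11.4, and dystrophic serum had 11.5. The ratio of 1.01 had a noise interval from 0.0760 with no upper limit, so that these spots set almost no bound on it. Under the 10 other settings that gave a ratio it ran from 0.790 to 1.38, and it was below 1 in 5 of them. The gene lies within GAB2, which encodes an adaptor protein of receptor signaling.

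The remaining 3 miRNAs were not detected, and no ratio was computed for them. miR-1842 was just short of the limit in both sera, with 125.6 units on the normal array and 123.9 units on the dystrophic array. It passed the limit on the normal array, and not on the dystrophic array, when the blank level of each block of spots was used. Its gene overlaps no other listed gene and lies beside BRICD5 and MLST8, the gene of a subunit of the mTOR complexes.

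miR-1836 had 123.3 units in normal serum and 119.9 units in dystrophic serum, levels that 208 and 281 of the 1408 blank spots reached. Its gene lies within TCP1, which encodes a subunit of the cytosolic chaperonin. miR-1839 had 110.8 units in normal serum, a level that 95.7% of the blank spots reached, and 119.3 units in dystrophic serum, which 23.1% of them reached. Its gene lies within WHAMM, which encodes an activator of actin assembly at internal membranes. With the blank level as background, neither miRNA was above the scatter of blank spots in either serum. miR-1836 was detected in normal serum alone when the local background was subtracted.

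The ratios of the 7 detected miRNAs ran from 0.834 to 1.74. None was above 2 and none was at 0.5 or less, while 13.4% and 5.63% of the 142 dog miRNAs detected in both sera passed these limits. The ratio was above 1 for 4 of the 7 and for 58.5% of the 142. No noise interval of the 7 lay wholly above 1 or wholly below 1, against 21.1% and 9.86% of the 142. The median ratio was 1.01 for the 7 and 1.09 for the 142, and the quartiles were 0.892 and 1.42 for the 7 and 0.806 and 1.58 for the 142. The 7 ratios lay within the range of the other dog miRNAs, which was 0.196 to 152. The upper end is miR-133c, whose normal-serum signal of 13.8 lay below the highest negative-control spot, so that 152 is not an exact fold. For the 50 dog miRNAs above all negative-control spots on both arrays, the ratios ran from 0.196 to 3.75.

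**Figure D2:**
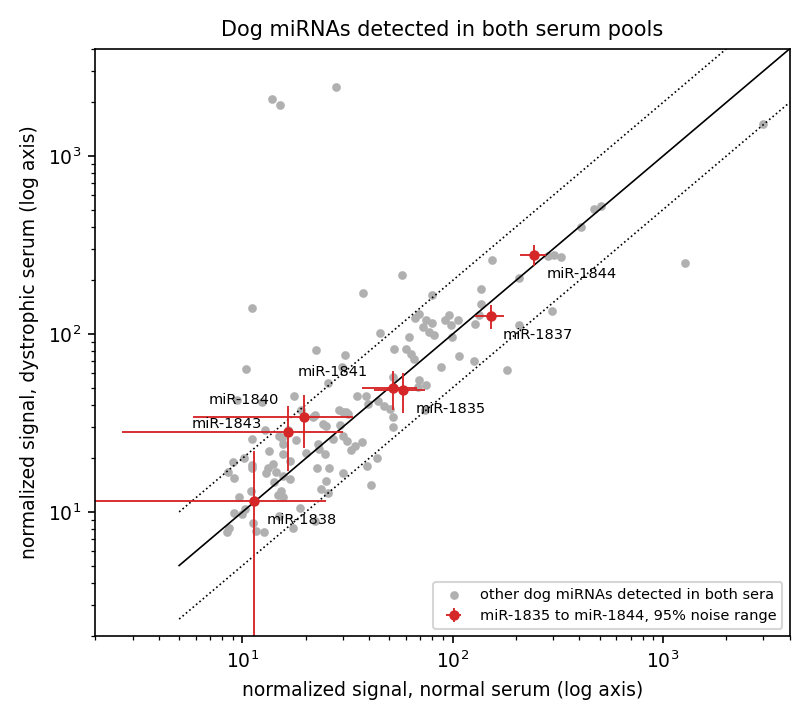
Normalized signal in dystrophic serum against normal serum (log axes) for the 142 dog miRNAs detected in both, with the 7 detected miRNAs of miR-1835 to miR-1844 in red and bars for their 95% noise ranges, some of which run past the axis. The solid line marks a ratio of 1 and the dotted lines mark 2 and 0.5, and all 7 red points lie between the dotted lines.

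The ratios depended on the scaling. Of the 7 members with a ratio, 4 were above 1, against 7 without scaling and 7 with spike controls. The count was 2 with scaling on the shared detected miRNAs and 3 with quantile normalization, and 6 of 6 with untrimmed blank spots. The share of all dog miRNAs above 1 was not computed in these settings, so the counts cannot be read as a result about the members. The median ratio of all dog miRNAs with a ratio was 1.09 in the main setting. It was 1.37 without scaling, 1.42 with spike controls, 0.898 with scaling on the shared detected miRNAs, 0.836 with quantile normalization and 1.37 with untrimmed blank spots. On the log2 scale, the median ratio of the 142 shifted by 0.33 without scaling, by 0.38 with spike controls, by -0.28 with scaling on the shared detected miRNAs and by -0.39 with quantile normalization. Over all dog miRNAs, 19 were above 2 and 8 at 0.5 or less, against 34 and 3 without scaling, 39 and 3 with spike controls, 12 and 19 with scaling on the shared detected miRNAs and 10 and 22 with quantile normalization. Each ratio was therefore also divided by the median ratio of the 142, a value that no single scaling factor can change.

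Against that median, miR-1835 stood at 0.764 (noise interval 0.525 to 1.12), miR-1837 at 0.764 (0.611 to 0.956), miR-1841 at 0.869 (0.592 to 1.31) and miR-1838 at 0.925. On the other side, miR-1844 stood at 1.04 (0.854 to 1.27), miR-1843 at 1.56 (0.706 to 9.75) and miR-1840 at 1.59 (0.813 to 5.51). Settings that only rescale an array cannot move a miRNA across the median. With the blank level of each block, a setting that could, miR-1838 moved above it, and the other 6 kept their side. No other setting moved a member across, but the distances changed. With local background subtraction miR-1837 stood at 0.483. Without background subtraction miR-1837 stood at 0.957, miR-1840 at 1.08 and miR-1843 at 1.05. The noise interval given above lay wholly below the median for miR-1837, 1 of the 7, and for 12.7% of the 142. It lay wholly above the median for none of the 7 and for 16.9% of the 142. The share of the members was not far from that of the chip, and these intervals leave out the noise of the median itself.

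**Figure D3:**
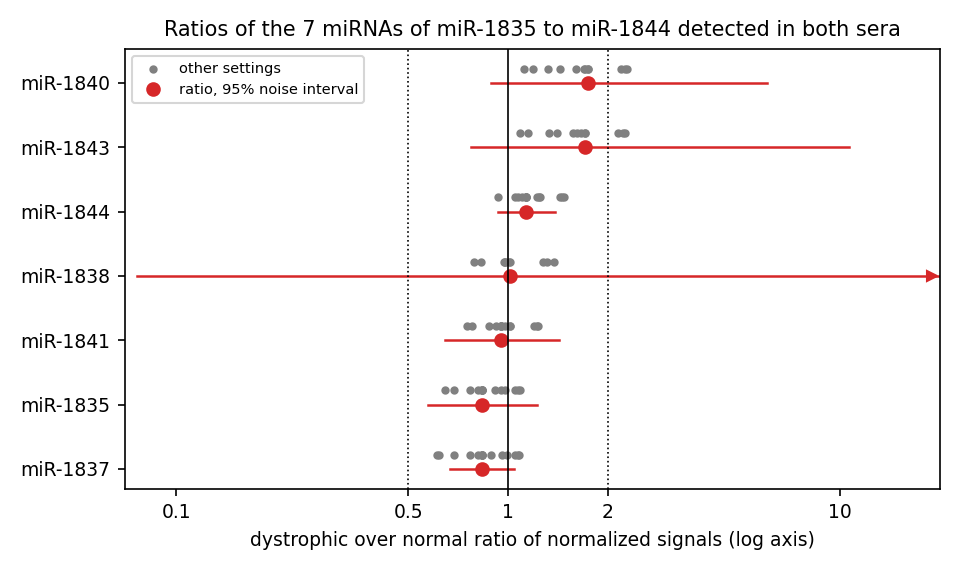
Ratio of dystrophic to normal serum (log axis) for the 7 miRNAs detected in both sera, with red points and lines for the ratio and its 95% noise interval and gray points for the other settings. The arrow marks the interval of miR-1838, which has no upper limit, and gray points beyond 2 occur for miR-1840 and miR-1843.

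The 4 miRNAs above all negative-control spots on both arrays had ratios of 0.834 to 1.14. None of them passed a fold limit under any setting that gave it a ratio. Of the 50 dog miRNAs above these spots on both arrays, 2 had a ratio above 2 and 3 had a ratio of 0.5 or less. The limit has to be met in both sera, so that it leaves out miR-1840, which met it in dystrophic serum and not in normal serum. The members that passed 2 under some settings, miR-1840 and miR-1843, both lay below the highest negative-control spot in normal serum.

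By their genes, the 10 miRNAs were solitary. They matched 12 RefSeq genes, and no other chip miRNA had a gene within 50 kb of any gene of theirs that is placed on a chromosome. Of the 281 other dog miRNAs, 280 matched a gene by name, and 153 of these, or 54.6%, had another chip miRNA within that window. A gene of the miRNA lay within or across a protein-coding gene for 7 of the 10 and for 130 of the 280, or 46.4%. The annotated hairpin genes of the 10 were 55 to 73 bases long, with a median of 60, and the median was 64 for the others. Strand and exons were not used here, so that a hairpin in an intron cannot be told from one on the opposite strand.

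The labels of the sera were set beside marker miRNAs. Of 8 striated muscle miRNAs, 5 were detected in each serum, and their summed normalized signal was 80.0 in normal serum and 6616 in dystrophic serum, with miR-133b the brightest of them in both. The 4 that were detected in both sera had ratios of 12.6 to 152. Their signals in normal serum were at most 27.8, and all 4 spots there lay below the highest negative-control spot. These ratios are therefore not exact folds, and their noise intervals reach well below and above them. The lower noise limit was at least 5.52 for each. The interval had no upper limit for miR-206 and reached 33256 for miR-133c. Only the dystrophic array detected miR-1 and only the normal array detected miR-499, with miR-208a and miR-208b detected in neither. Of 5 red cell miRNAs, miR-486 was not analysed here. The other 4 summed to 1457 in normal serum and 324.1 in dystrophic serum, with miR-451 the brightest of them in both. The fall came from miR-451 and miR-16, while miR-185 was detected in dystrophic serum alone and miR-144 in neither. The 5 platelet and leukocyte miRNAs summed to 306.4 and 206.9, with miR-223 the brightest of them in both and miR-126 and miR-155 detected in neither. Of these, miR-142 went the other way, from 12.8 to 28.7. The noise interval of its ratio ran from 0.924 with no upper limit, and so includes 1. The liver miRNA miR-122 was at 8.63 and 8.14. The summed signal of the detected members was 552.6 in normal serum and 575.0 in dystrophic serum, and without scaling their summed net signal was 531.4 and 695.4 units. What these cell sources contributed to the member signals was not tested.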

How the data were processed

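The authors deposited the scanner intensity of each spot and a table of normalized intensity values. The scanner intensity was used, without its local background. The blank spots of each array were trimmed by 5% at each end, rounded up, because this had earlier been seen to give the deposited normalized values. Here the recomputed values differed from these by at most 0.0491 and 0.0498. Detection, scaling and ratios were computed as stated above with Python 3.11.15, numpy 2.4.6 and pandas 2.3.3. Normexp, with an offset of 50, used limma 3.58.1.

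The noise of a blank spot was 6.66 units on the normal array and 6.47 on the dystrophic array, from the central 95% of blank spots. It was joined with a coefficient of variation of 6.67% between the 8 spots of each of 10 bright control probes in a Fieller interval, which leaves out dogs, RNA preparations and arrays. The code was tested on simulated data, with normally distributed noise of the size that the interval assumes. Only brighter spots were scored, so the intervals of miR-1838 and miR-1843 were not checked. All 10 members were named. The members and lists were chosen with earlier results of these data known. The host gene of miR-1835 is not reported here. Shared seeds and sequence identity were not used here. Of 15 other settings, covering source of values, background, detection, dim signals and scaling, 1 was chosen after seeing the data.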

Additional observations from a re-analysis of the deposited data

Results flagged for a closer look

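The scanner also gave a local background around each spot, which the ratios do not use. Around 3 members it was higher than around any blank spot of the same array, where the highest values were 145.8 units on the normal array and 151.6 on the dystrophic array. Around miR-1844 it was 408.2 units on the normal array, above the intensity of the spot itself, and 392.1 on the dystrophic array. Around miR-1841 it was 160.6 on the normal array, and around miR-1837 it was 205.9 on the dystrophic array. The same limit was passed by 2 of the 10 members on each array, and by 8.93% of the 291 dog miRNA spots on the normal array and 14.4% on the dystrophic array. Across the 291 dog miRNA spots, local background and spot intensity had a rank correlation of 0.78 on the normal array and 0.81 on the dystrophic array.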

How the results depend on the processing

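A median ratio was taken as unmoved within a factor of 1.203, a ratio within its noise interval, and a count within 1.5 times. Under the 15 alternatives, 8 ratios of members left their noise interval, 5 of miR-1837 and 3 of miR-1844. The limits on dim signals leave a ratio as it is or remove it, and the interval of miR-1838 holds almost any value, so these could not show a change. No member passed a fold limit, except 2, miR-1840 and miR-1843, without scaling, with spike controls and with untrimmed blank spots. In these settings 23.9%, 27.5% and 22.2% of all dog miRNAs with a ratio were above 2.

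The median ratio of the members was 1.27 without scaling, 1.31 with spike controls, 1.34 with untrimmed blank spots, 1.22 with the blank level of each block, 0.830 with scaling on miRNAs detected on both arrays and 0.790 with quantile normalization. With local background subtraction 2 members were detected in normal serum (miR-1836 and miR-1837), 2 in dystrophic serum (miR-1837 and miR-1844) and 1, miR-1837, in both, with a ratio of 0.611, and 7.22% of all dog miRNAs were detected in both. A normalized signal of at least 25 on both arrays was met by 4 members and 24.4% of all dog miRNAs. The limit set by the negative controls, an alternative chosen after seeing the data, was also met by 4 members and by 17.2% of all. At 3 SD, 6 members and 40.5% of all were detected in both sera, and 7 members in dystrophic serum. For the counts in a single serum at 3 SD and with local background subtraction, the share of all dog miRNAs was not computed. Those counts therefore cannot be set against the chip. Setting dim signals to the limit gave no ratio for the 3 undetected members. Scaling by 1 factor per array multiplies all ratios alike. Without scaling, with spike controls and with scaling on shared miRNAs, the member median stayed at 0.925 of the median of all dog miRNAs. Beyond this, and the members that a stricter limit removes, the cause of these shifts was not tested.

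Among the detected members, signal over background limits miR-1838, miR-1840 and miR-1843 most. Leaving out a replicate was not possible. No paired analysis was possible because the 2 arrays form no more than 1 pair.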

Other observations

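Some members shared a block of spots, miR-1836 with miR-1837, miR-1839 with miR-1841, and miR-1842 with miR-1843. On the dystrophic array, the blank level of the block was above that of the whole array by 3.49 units for miR-1844, 2.90 for miR-1842 and miR-1843, and 2.59 for miR-1839 and miR-1841. The net signal of miR-1843 on that array was 33.9 units, and that of miR-1842 was 8.08 units.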
